A study of Mus musculus with 2 samples.

Results

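The unfolded protein response and the integrated stress response were examined in C2C12 myotubes through 42 genes, chosen by name from the gene names of the array. All 42 were on the array, with 80 probes between them, out of 37055 distinct gene names. The C2C12 cells, myoblasts of an established mouse line, had been fused into myotubes in low serum. In the KPC-exo group they were exposed for 24 h to 4 µg of exosomes, small vesicles shed by cells, from a pancreatic cancer line. That line came from a pancreatic tumour of mice with the alleles KrasLSL-G12D/+ and Trp53LSL-R172H/+ and with Pdx1-Cre, a recombinase driven by a pancreatic promoter. The control group, MPDC-exo, received exosomes of MPDC, a line of mouse pancreatic ductal epithelium; its dose is not given in the labels. They name 1 KPC line and 1 MPDC line and no culture without exosomes. Each group had 1 array, so every difference below lies between 2 arrays, has no replicate check and carries no p-value.

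Proteins that enter the secretory pathway are folded in the endoplasmic reticulum (ER) by chaperones such as BiP and by protein disulfide isomerases (PDIs). When unfolded protein builds up, the sensors IRE1, ATF6 and PERK raise transcription of these helpers and of the ER-associated degradation (ERAD) machinery. PERK also slows translation through phosphorylation of eIF2alpha. The kinase GCN2 reaches eIF2alpha from amino acid shortage, and both routes favour translation of the factor ATF4, whose targets include genes of amino acid supply and of cell death. In muscle these pathways respond to load, fasting and inflammatory signals.

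Many members share promoter letters through which the ATF6 and XBP1 factors are known to act. The letters were not searched to choose the members. The members were chosen by name as genes of this response, so the shares below are a description and not independent support. RefSeq promoters (GRCm38.p6, 250 bases before to 50 bases after the start) were found for 37 of the 42 members. The ER stress response element (ERSE), searched on both strands as CCAAT, 9 bases of any kind and CCACG, was present in 10 of these 37 members (27.0%), against 37 of all 27025 genes with a promoter (0.137%). The windows below are shown because they belong to the chaperones and PDIs described first and to an ERAD ligase. Each is printed 5′ to 3′ in the direction of the motif, with the fixed letters in capitals.
Hspa5, chr2:34772015-34772053, + strand: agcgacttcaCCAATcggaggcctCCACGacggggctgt
Hsp90b1, chr10:86705523-86705561, + strand: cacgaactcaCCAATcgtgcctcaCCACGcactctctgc
Hsp90b1, chr10:86705628-86705666, - strand: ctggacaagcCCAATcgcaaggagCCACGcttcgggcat
Calr, chr8:84847065-84847103, + strand: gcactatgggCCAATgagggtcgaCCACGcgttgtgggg
Creld2, chr15:88819510-88819548, - strand: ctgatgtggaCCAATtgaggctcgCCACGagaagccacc
Pdia6, chr12:17266481-17266519, + strand: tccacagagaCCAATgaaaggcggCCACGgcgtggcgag
Syvn1, chr19:6046522-6046560, + strand: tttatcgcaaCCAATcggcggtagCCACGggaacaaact
The other members with the ERSE letters were Canx, Dnajc3, Ero1lb and Derl3. The related ERSE-II letters, ATTGG, any base and CCACG, occurred in Herpud1 and Dnajb11, which is 5.41% of the members with a promoter against 0.0444% of all genes. The UPRE core TGACGTGG occurred in 0 of the 37 members and in 0.714% of all genes.

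The letters TGATGNAAN, the core of the element that ATF4 is known to bind, were found in 4 of the 37 members (10.8%) and in 4.50% of all genes. They are shown for a pair of ATF4 targets and for Herpud1, which also holds ERSE-II.
Asns, chr6:7693214-7693242, - strand: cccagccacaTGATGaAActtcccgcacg
Chac1, chr2:119351038-119351066, - strand: ctggcaggagTGATGcAAcggcagggaag
Herpud1, chr8:94386306-94386334, - strand: gggtgcgggcTGATGcAAcccgccgtggt
The 4th member was Trib3, whose match lies after the start. A match is a description of letters in a window and says nothing about binding in these cells, and no match says only that these letters are not in the window.

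Levels are given as log2 of the processed spot signal minus the 75th percentile of the same array, which was 380 units with MPDC-exo and 639 units with KPC-exo. A level of 0 is therefore the 75th percentile of all probes. Levels of different probes serve to rank signals and to sum lists of markers, and are not read as relative amounts of RNA. The brightest probe stands for its gene, and a gene is called measured if Feature Extraction set this probe well above background on both arrays, as it did for 16909 genes. The defining markers of myotubes were present, with 13 of 13 measured and a summed log2 level of 9.47 with MPDC-exo and 9.49 with KPC-exo. Single markers went both ways, with log2 differences (KPC-exo minus MPDC-exo) from -0.43 for Ckm to 0.34 for Tnnt3 and a median of -0.02. Of 8 markers of ductal epithelium, the cell type of the control exosomes, only Krt19 and Sox9 were measured, and Epcam, Muc1, Cldn4, Cftr, Cdh1 and Krt7 were at background on both arrays. The 6 markers of cycling or undifferentiated myoblasts had summed levels of 4.58 and 4.32, with Myf5 not well above background. The 6 fibroblast markers had 8.19 and 8.14, with Thy1 not well above background. The measured fibroblast markers had a median log2 difference of 0.22, from -0.29 for Col3a1 to 0.37 for Dcn. All 5 measured myoblast markers were lower with KPC-exo, as were 41.0% of all measured genes. Their log2 differences were -0.41 for Top2a and Ccnb1, -0.33 for Mki67, -0.28 for Pax7 and -0.09 for Myod1. Among the myotube markers, which went both ways, Ckm and Des were about as low, at -0.43 and -0.41. The 4 macrophage markers had 1.39 and 1.40, with Csf1r at -0.87, Cd68 at 0.63, Ptprc at 0.29 and Adgre1 at background, and 4 markers of acinar and islet cells had -0.13 and 0.19. The part of these other cells in the results was not tested. In RNA of whole cultures, fewer cells of a type and less RNA per cell cannot be told apart.

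Of the 42 members, 41 were measured on both arrays, and most differed little between them. The exception, Derl3, a retrotranslocation gene with 1 probe, stayed at background on both. Of the 41, 1 was lower with KPC-exo by at least 1.5-fold, and 0 were higher by that much. Over all 16909 measured genes these shares were 3.7% lower and 3.68% higher, so the members' count did not exceed the background. At a smaller step of 0.32 on the log2 scale, 4 members were lower (Pdia4, Hyou1, Edem2 and Trib3) and 2 higher (Edem1 and Stc2), against 10.1% and 15.4% of all measured genes. The remaining 35 lay within that step. Among the 8455 genes at or above the median signal, which include 33 members, 1.3% were 1.5-fold lower and 0.84% higher, and 6.15% and 10.1% passed the smaller step. Of those 33 members, Pdia4 and Trib3 were lower and Edem1 higher by the smaller step. The median log2 difference, KPC-exo minus MPDC-exo, was -0.04 over the 41 members and 0.06 over all measured genes, and 28 of the 41 lay below the all-gene median. With normexp the members' median was 0.03.

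Bright genes varied less than dim ones, and the members were mostly bright. Of 4 equal bins of measured genes by signal, the brightest held 21 members and had a median log2 difference of 0.01, with 1.63% of its genes at least 1.5-fold apart. In the dimmest bin, which held 4 members, 17.3% of genes were that far apart and the median was 0.07. The part of signal strength in the members' median was not tested.

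**Figure D1:**
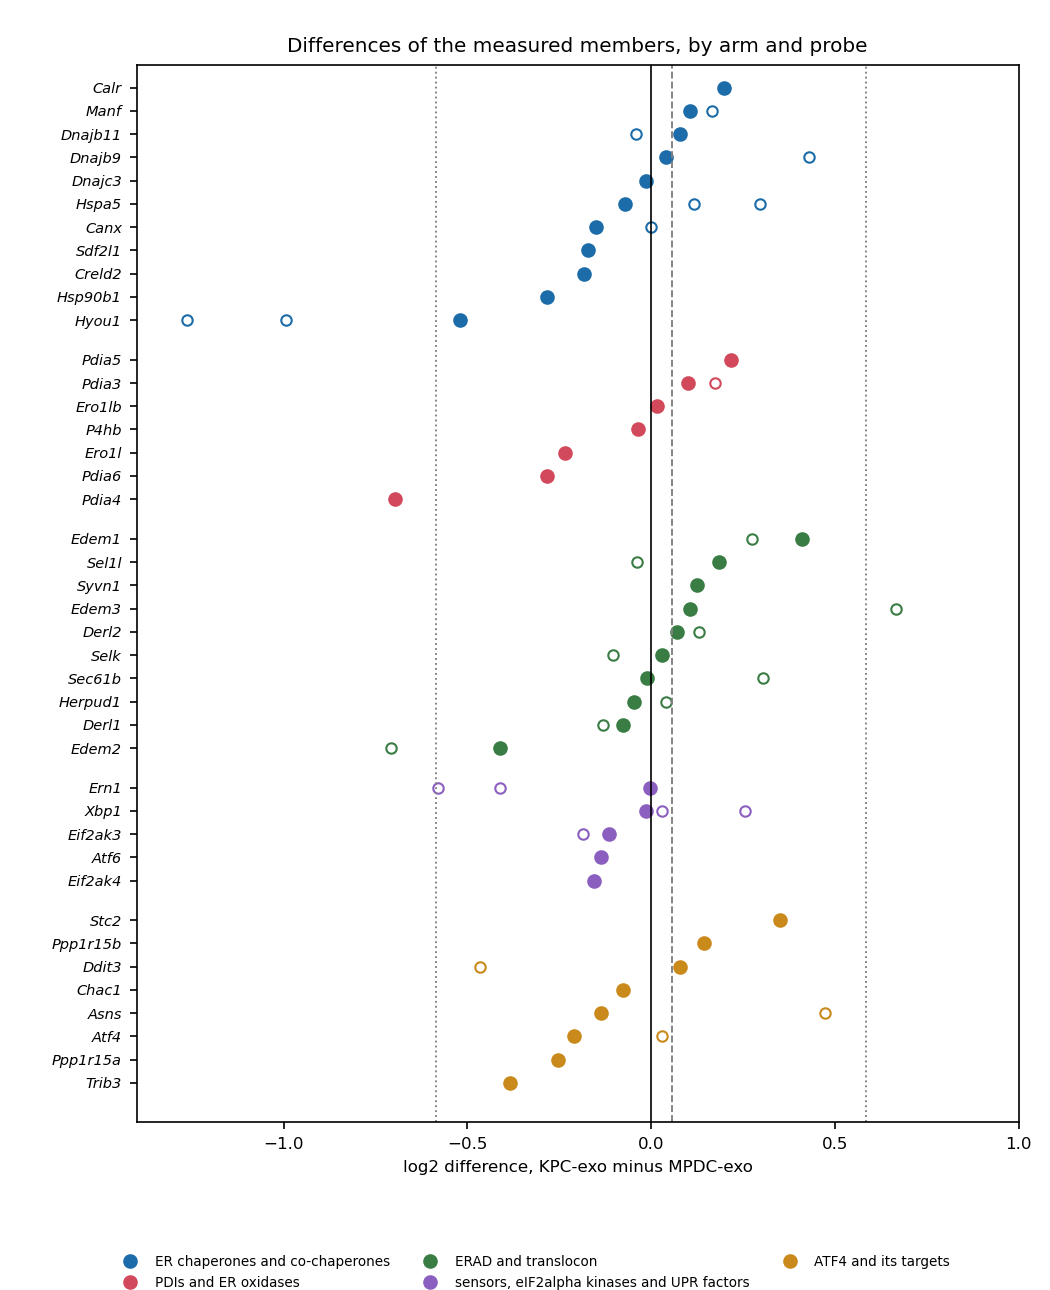
Log2 difference, KPC-exo minus MPDC-exo, of the 41 measured members, a row for each gene, coloured by arm. Filled points are the brightest probe and open points are other probes well above background on both arrays. The dashed line marks the median of all measured genes (0.06) and the dotted lines mark 1.5-fold; Pdia4 is the only filled point beyond them, while Hyou1, Edem2 and Edem3 have open points beyond them.

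The 11 ER chaperones and co-chaperones were all measured, and their median log2 difference was -0.07, with 8 below and 3 above the all-gene median. With normexp background correction that median was 0.02. Hyou1, an hsp70-like nucleotide exchange factor of BiP, had the lowest value of the arm, a log2 level of -0.84 with MPDC-exo and -1.36 with KPC-exo. It was 1.43-fold lower on the KPC-exo array at its brightest probe. All 3 of its probes well above background were lower there, with log2 differences of -0.52, -1.26 and -0.99, so the gene passed 1.5-fold at the dimmer pair and not at the brightest. In unscaled units those 3 probes read 212 ± 22.1, 151 ± 16.4 and 92.1 ± 11.2 on the MPDC-exo array (± is the spot error that Feature Extraction gives, whose multiplicative part is preset in the file headers). On the KPC-exo array, which was brighter as a whole, they read 248 ± 26.6, 106 ± 14.2 and 77.7 ± 12.2. The dimmer pair thus read lower on the KPC-exo array even before scaling, and the brightest did not. The ± ranges overlapped for the readings of 92.1 and 77.7 and did not for those of 151 and 106. The local background of the brightest spot was marked as an outlier on the KPC-exo array, and without such spots the next probe, at -1.26, stands for the gene.

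The probes behind these low values are shown because the result rests on them. They are 60 bases long, are printed 5′ to 3′ as in the array files, and are located on mm9, the build of those files.
Hyou1, chr9:44199084-44199143, + strand: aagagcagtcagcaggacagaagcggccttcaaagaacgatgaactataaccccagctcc
Hyou1, chr9:44197162-44197329, + strand: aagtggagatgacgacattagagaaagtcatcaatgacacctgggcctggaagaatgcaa
Pdia4, chr6:47746516-47746575, - strand: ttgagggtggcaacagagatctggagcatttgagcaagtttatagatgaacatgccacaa
The second Hyou1 probe covers 168 bases of the genome with 60 bases of sequence and so crosses a splice junction. The brightest Hyou1 probe lies at chr9:44199354-44199413.

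Hspa5, which encodes BiP, the master chaperone and the textbook readout of the unfolded protein response, had a log2 level of 6.59 with MPDC-exo and 6.52 with KPC-exo. Its other 2 probes had log2 differences of 0.12 and 0.30, so its 3 probes did not share a sign. Hsp90b1, the ER paralogue of HSP90 known as GRP94, had levels of 5.95 and 5.67 at its 1 probe, which is 1.22-fold lower on the KPC-exo array. BiP and GRP94, usually induced together, were thus both within 0.32 on the log2 scale. Calr and Canx encode the lectin chaperones calreticulin and calnexin. Calr had levels of 6.73 and 6.92, the highest difference of the arm at 0.20, and Canx had 5.82 and 5.67, a difference of -0.15, with 0.00 at its other probe.

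The smaller co-chaperones and secreted factors also lay within 0.32 on the log2 scale. Creld2, a PDI-like secreted stress protein, had levels of 5.68 and 5.50, and Sdf2l1, a partner of BiP complexes, had 2.24 and 2.07. Manf, a secreted factor retained by BiP, had 4.29 and 4.40, with both its probes higher on the KPC-exo array at 0.11 and 0.17. Of the J-domain co-chaperones, Dnajb11 had a difference of 0.08, Dnajb9 0.04 and Dnajc3 -0.01. The dimmer probe of Dnajb9, a target of spliced XBP1, had 0.43.

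Among the 7 PDIs and ER oxidases, Pdia4 had the lowest value and was the member past 1.5-fold. Pdia4, a disulfide isomerase also called ERp72, had a log2 level of 2.46 with MPDC-exo and 1.76 with KPC-exo. It was 1.62-fold lower on the KPC-exo array, and 2.78% of all measured genes had lower differences. This rests on the single probe printed above, which read 2092 ± 209 units with MPDC-exo and 2167 ± 217 units with KPC-exo. The unscaled readings differed by less than this spot error, while the 75th percentile was 380 units with MPDC-exo and 639 units with KPC-exo. Like every difference here, that of Pdia4 depends on the scaling between the arrays. With normexp background correction the log2 difference of Pdia4 was -0.55, within 1.5-fold.

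The other disulfide enzymes lay on either side of 0. Pdia6, the isomerase P5, had levels of 6.59 and 6.30 at 1 probe, a difference of -0.28, and Ero1l, the oxidase that recharges PDI, had 2.67 and 2.43, a difference of -0.23. P4hb, which encodes PDI itself, had 6.10 and 6.07. Pdia3 (ERp57), the partner of calnexin and calreticulin, had differences of 0.10 and 0.18 at its 2 probes. Pdia5 had the highest difference of the arm at 0.22, with levels of 2.03 and 2.25, and Ero1lb, the second ER oxidase, had 0.02. The median of the arm was -0.04, with 5 members below and 2 above the all-gene median.

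**Figure D2:**
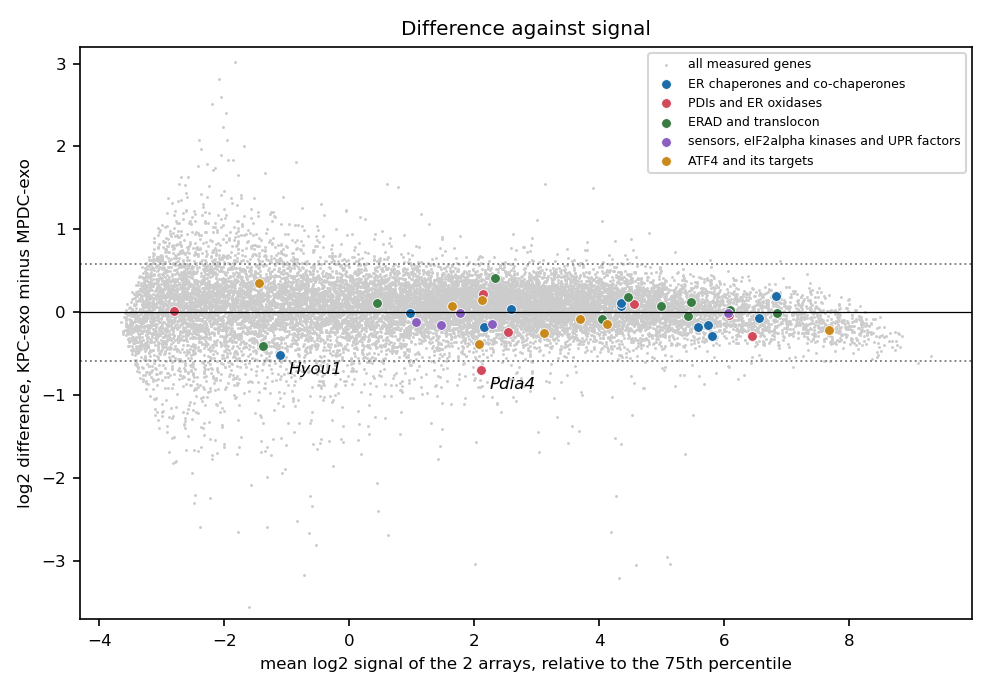
Log2 difference, KPC-exo minus MPDC-exo, against the mean log2 level of both arrays for the 16909 measured genes (grey) and the 41 measured members (coloured by arm). The spread of all genes narrows as signal rises; Pdia4 lies below the lower dotted line of 1.5-fold among genes of middle signal, and Hyou1 lies just above it among dim genes.

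The 10 measured ERAD and translocon genes had a median log2 difference of 0.05, with 5 below and 5 above the all-gene median, and 0 past 1.5-fold. The median was just below 0 when arrays were centred on their median or on the percentile over detected probes. The 3 EDEM genes, which encode lectins or mannosidases that mark misfolded glycoproteins for disposal, held both ends of the arm. Edem1 had levels of 2.13 with MPDC-exo and 2.55 with KPC-exo, 1.33-fold higher, and its other probe had a difference of 0.28. Edem2 had levels of -1.18 and -1.59, 1.33-fold lower, and its other probe, which crosses a splice junction, had -0.71. Edem3 had 0.11 at its brightest probe and 0.67 at a dim probe. Edem1 and Edem2 thus lay on opposite sides of 0, each with both measured probes on its side.

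The membrane core of ERAD differed less. Sel1l and Syvn1 encode the adaptor and the ubiquitin ligase of the HRD1 complex, and had differences of 0.18 and 0.12, with -0.04 at the other measured probe of Sel1l. For the derlins, which help to move substrates out of the ER, Derl1 had -0.08 and -0.13 and Derl2 had 0.07 and 0.13 at their measured probes. Herpud1, a scaffold of the complex, had -0.05, and Selk, a selenoprotein that binds derlins, had 0.03. Sec61b, the beta subunit of the translocon, had levels of 6.86 and 6.85, and a difference of 0.30 at its other probe.

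The 5 sensors and UPR factors had log2 differences from -0.15 to 0.00, with a median of -0.11. All 5 were below 0, as were 41.0% of all measured genes, though Xbp1 and Ern1 lay at -0.01 and 0.00. Leaving out spike-in centring, Xbp1 was above 0 in 4 and Ern1 in 1 of 12 processings, the reported included, while Atf6, Eif2ak3 and Eif2ak4 stayed below 0. Eif2ak3, which encodes the eIF2alpha kinase PERK, had levels of 1.12 and 1.01, and Eif2ak4, which encodes GCN2, had 1.55 and 1.39. Atf6, which encodes the membrane-bound transcription factor, had 2.36 and 2.22. Xbp1, the mRNA that IRE1 splices, had levels of 6.06 and 6.05 at its brightest probe, with 0.25 and 0.03 at the other 2. Whether the 3 Xbp1 probes separate its spliced from its unspliced form was not tested. Ern1, which encodes IRE1alpha, had levels of 1.78 and 1.78 at its brightest probe, while the other 2 measured probes had -0.58 and -0.41. The sensors' activity rests on phosphorylation, cleavage and splicing, which these signals do not measure.

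Of the 8 genes of the ATF4 arm, 5 lay below and 3 above the all-gene median, the median log2 difference was -0.11, and 0 were past 1.5-fold. Trib3, a pseudokinase induced by ATF4 and CHOP, had the lowest value, with levels of 2.27 with MPDC-exo and 1.88 with KPC-exo, 1.30-fold lower at 1 probe. Stc2, a secreted glycoprotein induced by PERK signalling and also by hypoxia, had the highest, with levels of -1.62 and -1.27, or 1.27-fold higher at 1 dim probe. Atf4 itself had levels of 7.78 and 7.57, a difference of -0.21, and 0.03 at its other probe. Ddit3, which encodes the death-associated factor CHOP, had levels of 1.61 and 1.69 at its brightest probe and a difference of -0.46 at the other.

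Of the remaining genes of the arm, Chac1, Asns and Ppp1r15a lay below 0 at their brightest probe and Ppp1r15b above it. Chac1, a glutathione-degrading enzyme often used as an ATF4 readout, had levels of 3.73 and 3.65. Asns, asparagine synthetase, had -0.14 at its brightest probe and 0.47 at a dimmer probe across a splice junction. The 2 regulatory subunits that return eIF2alpha to its resting state lay on opposite sides, with Ppp1r15a (GADD34, the inducible subunit) at -0.25 and Ppp1r15b (the constitutive subunit) at 0.14.

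Probes of the same gene gave a measure of technical agreement. Of the 41 measured members, 22 had at least 2 measured probes. In 12 of these the probes shared a sign, 6 lower and 6 higher on the KPC-exo array, and in 10 they did not. The pooled SD between probes of a member was 0.23 on the log2 scale, or 0.36 between probes of any gene (5767 genes). Of the 41 single members, 31 lay within 0.23 of 0. The SD of differences between genes was 0.22 over the members and 0.35 over all measured genes. It was 0.26 over genes at or above the median signal. Shares of all measured genes within 0.23, or with probes sharing a sign, were not computed. The counts of 31 and 12 are therefore descriptions only. All 3 measured Hyou1 probes and both probes of Edem1 and of Edem2 lay beyond 0.23 on the same side of 0. Hyou1 and Edem2 were dim, brighter than only 24.1% and 21.6% of measured genes. In the dimmest bin, which holds both, the SD of differences between genes was 0.49. Whether these 3 genes stand out from technical variation was not tested. Neither between-probe SD includes variation between cultures.

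The values of members with and without the ERSE letters overlapped. The 9 measured ERSE members had a median log2 difference of -0.07, from -0.28 to 0.20, and the 27 measured members with a promoter lacking these letters had -0.01, from -0.70 to 0.41. The 10 other measured genes with an ERSE promoter, outside the members, had a median of 0.09. All 4 members with the TGATGNAAN letters lay below the all-gene median, from -0.38 to -0.05, as did 28 of all 41 measured members. The 277 other measured genes with these letters had a median of 0.07. These values are descriptions with no test.

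Wider lists of the same pathways were placed beside the members. They held 120 further genes, of which 116 were measured, with 0 at least 1.5-fold apart in either direction and a median log2 difference of 0.05. At the smaller step of 0.32, 8 were higher (6.90%) and 3 lower (2.59%). All measured genes had 3.68% and 3.7% past 1.5-fold higher and lower, and 15.4% and 10.1% past the smaller step. Genes at or above the median signal had 0.84% and 1.3%, and 10.1% and 6.15%. The wider lists were mostly bright, their median gene being brighter than 78.1% of measured genes. Their shares were below both backgrounds, though 0 of 116 past 1.5-fold lay close to the shares of the brighter genes. The members' median lay 0.09 below that of all genes, while that of the wider lists was 0.05 against 0.06.

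In the list of other ER folding and glycan quality control the median was 0.06 over 26 genes. Txndc12 and Erp44, both thioredoxin-like ER proteins, had log2 differences of 0.36 and 0.31. Lman1, a cargo receptor for export, and Tmx3, a membrane thioredoxin, had -0.32 and -0.27. The other measured probe of Lman1 had -0.01. For the translocon, signal peptidase and oligosaccharyltransferase the median was 0.09 over 22 genes, with Srpr, the signal recognition particle receptor, at -0.41, and Spcs3, Stt3a and Tram1 at 0.38, 0.32 and 0.31. Other ERAD genes had a median of 0.02 over 20, with the ubiquitin ligase genes March6 and Rnf5 at 0.49 and -0.30, Herpud2 at 0.28 and Aup1 at -0.28. The probes of Stt3a did not share a sign.

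Other stress kinases, eIF2 and eIF2B subunits and ER-bound factors had a median of 0.03 over 18 genes. Eif2s2, the beta subunit of eIF2, had -0.35 at its brightest probe, though another probe had 0.87. Eif2b4 and Eif2b1, subunits of the exchange factor eIF2B, had 0.32 and 0.29, and Eif2ak2, the double-stranded RNA kinase PKR, had -0.29. Another measured probe of Eif2b4 had -0.56. Among amino acid response and other ATF4 targets the median was 0.05 over 30 genes. Eif4ebp1, a brake on cap-dependent translation, had 0.52, the highest of the wider lists. Mars and Iars, aminoacyl-tRNA synthetases, had 0.41 and 0.36, and the amino acid transporter Slc38a2 had 0.41 at its brightest probe and 0.07 at its other. These were the 4 genes of the list past 0.32, 13.3% of its 30, and 0 were lower by that step. The higher share was 15.4% of all measured genes and 10.1% of those at or above the median signal. The cystine and amino acid transporter genes Slc7a11, Slc7a3 and Slc7a5 were not measured.

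**Figure D3:**
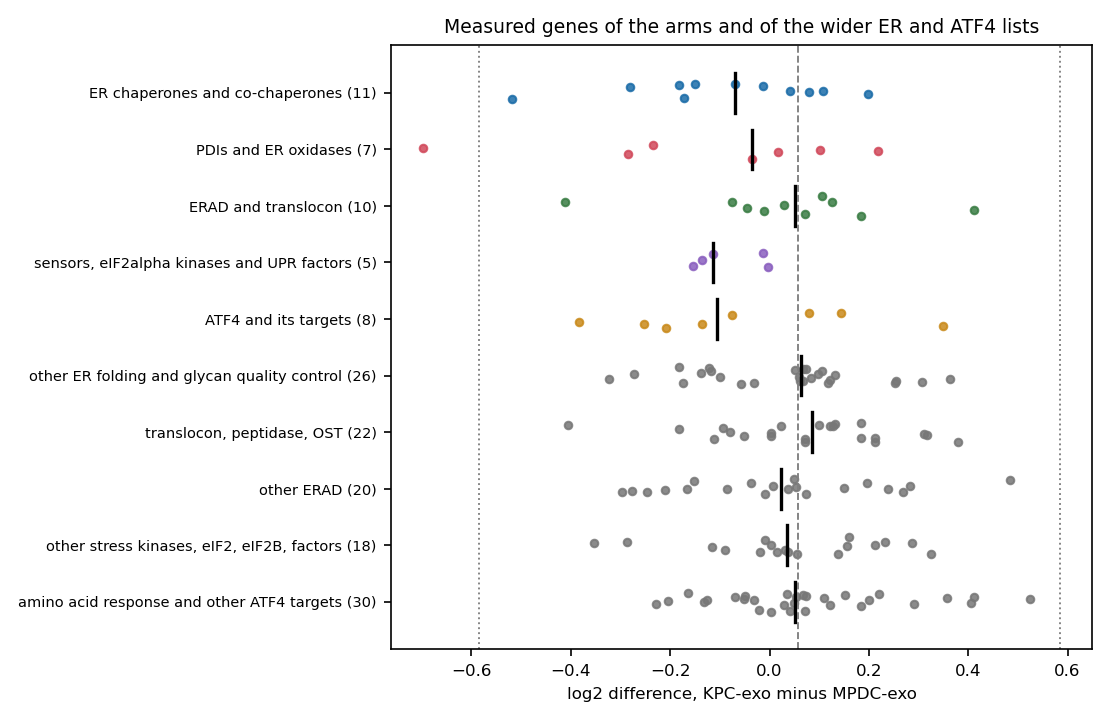
Log2 difference, KPC-exo minus MPDC-exo, of each measured gene in the 5 arms (coloured) and the 5 wider lists (grey), with the number of genes in brackets and the list median as a black bar. Points are spread vertically for legibility; the dashed line is the median of all measured genes and the dotted lines are 1.5-fold, which only Pdia4 passes.

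The values farthest from 0 were recomputed under each processing. Pdia4 ranged from -0.77 to -0.55 and Hyou1 from -1.26 to -0.44, leaving out centring on spike-in probes. That centring added about 1.00 to every gene, so Pdia4 became 0.30 and 39 of the 41 members were at least 1.5-fold higher. Cyclic loess normalization, the mean over probes and leaving out spots with a marked background each put 2 members past 1.5-fold lower, with Hyou1 at -0.60, -0.92 and -1.26. Under a stricter filter on dim probes Hyou1, Edem2, Stc2 and Ero1lb were not measured, and without background-marked spots Trib3, Creld2, Dnajc3 and Syvn1 were not. Leaving out spike-in centring, 28 of the 41 members kept the sign of their difference under each processing alternative that measured them.

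**Figure D4:**
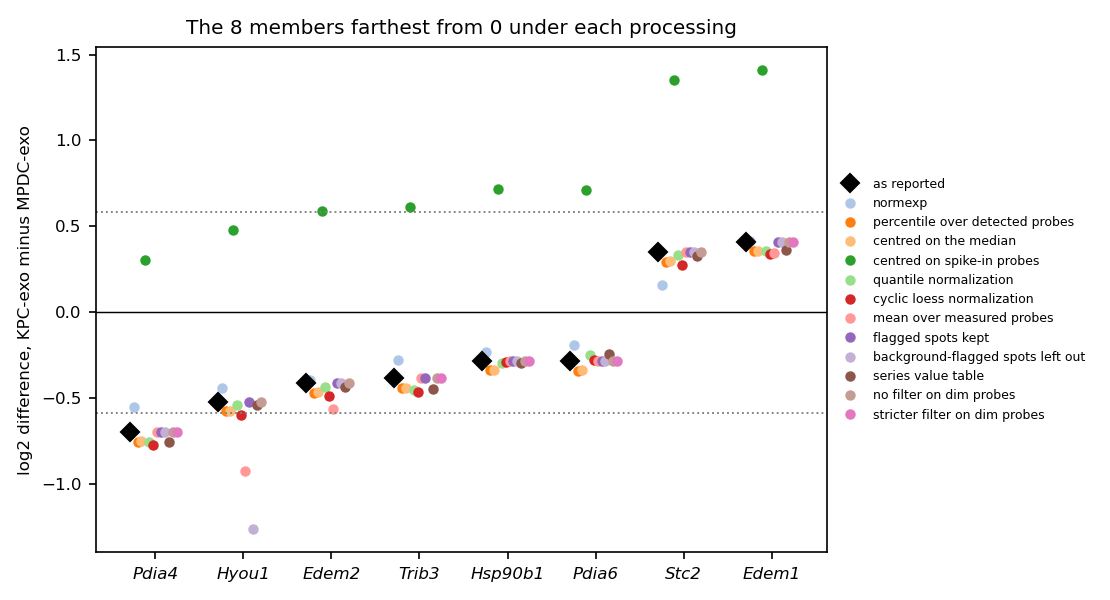
Log2 difference, KPC-exo minus MPDC-exo, of the 8 members farthest from 0 under each processing (coloured points) and as reported (black diamonds). Dotted lines mark 1.5-fold; centring on spike-in probes puts all 8 above 0, each gene keeps its side of 0 under the other alternatives shown, and Hyou1 has the widest range.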

How the data were processed

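Per the labels, total RNA was amplified to Cy3-labelled cRNA. Spots were quantified in Agilent Feature Extraction 10.7.1.1, per the submitters' processing notes; per the file headers, spatial and multiplicative trends were removed and very dim signals replaced by surrogates. Each deposited file gives linear spot intensity, with no scaling between arrays. The deposited value table is in log2 by an unstated method and served only as an alternative.

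Spots marked as non-uniform or population outliers were left out, processed signals were log2-transformed, repeat spots averaged, and the 75th percentile over all probes of an array was subtracted. No probe was saturated. Probes above background made up 45.9% (MPDC-exo) and 47.6% (KPC-exo), so the percentile over detected probes was an alternative. Each member probe had 1 spot; 292 probes spotted 10 times had a median SD of 0.03. With 1 array a group, the array number limits the precision.

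The members and lists were chosen with earlier results of these data known. All members are described; of each wider list, the 4 genes with the largest difference are named. Names are those of the array, or their RefSeq synonyms. The steps were run on a simulated copy of the MPDC-exo array with a scale factor, set folds and noise smaller than the between-probe SDs above. That run checks only that the steps recover set folds. It does not measure accuracy at the noise of these arrays. Other alternatives were normexp (offset 50), centring on the median or spike-ins, quantile or cyclic loess normalization, the mean over probes, other spot filters, no or a stricter filter on dim probes, thresholds of 0.32 on the log2 scale and 2-fold, and list means. Python 3.11.15, numpy 2.4.6, pandas 2.3.3, matplotlib 3.10.9, R 4.3.3 and limma 3.58.1 were used.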

Additional observations from a re-analysis of the deposited data

How the results depend on the processing

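Centring on spike-in probes moved every list up by about 1.00. The median became 0.96 for all members, 0.93 for ER chaperones, 0.96 for PDIs, 1.05 for ERAD, 0.88 for sensors and 0.89 for the ATF4 arm. In the wider lists it became 1.06 for ER folding, 1.08 for the translocon, 1.02 for other ERAD, 1.03 for stress kinases and 1.05 for the amino acid response. Under it 39 members were at least 1.5-fold higher and 0 lower, and Pdia4 had 0.30. With normexp the members' median was 0.030, its distance from all genes was -0.025 in place of -0.09, and 0 members were 1.5-fold lower. With no filter on dim probes that distance was 0.11, because the median of all genes fell to -0.15. The mean over probes gave a median of -0.039 for other ER folding. Past 1.5-fold lower were 2 members with cyclic loess, with the mean over probes and without background-marked spots. At 0.32 on the log2 scale 2 members were higher and 4 lower, and at 2-fold 0 were lower. Leaving out spike-in centring, the medians of 4 of the 10 lists (PDIs, sensors, the ATF4 arm and the translocon list) kept their sign, and 6 turned. ER chaperones turned to 0.02 with normexp and other ER folding with the mean over probes. ERAD turned under 2 processings, the amino acid response under 3, other ERAD under 5 and stress kinases under 6, the lowest values being -0.0049, -0.0039, -0.033 and -0.044. Each group has 1 array, so leaving out a replicate could not be tried. No paired analysis was possible because the groups have 1 array each. Array signal over background limits Hyou1, Edem2 and Stc2, which are dim.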

Other observations

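Genes that carry folded cargo out of the ER and return escaped chaperones were looked at in 3 lists written after the members' values were seen. COPII coat genes had a median log2 difference of 0.10 over 14 genes, with Sec23b, Preb and Sar1b at 0.29, 0.29 and 0.26. The other measured probe of Preb had -0.06. Of the 14, 0 were past 0.32 on the log2 scale. Over all measured genes 15.4% were higher and 10.1% lower by that step, and 10.1% and 6.15% of those at or above the median signal. Among the KDEL receptors and the COPI coat the median was 0.08 over 10 genes. Copz1, the zeta subunit of the COPI coat, was higher with KPC-exo by 1.55-fold at 1 probe, with levels of 5.45 and 6.09. It was the 1 gene of the 10 past 1.5-fold. Of all measured genes 3.68% were higher by that much, and 0.84% of those at or above the median signal. Kdelr2, a receptor that retrieves ER chaperones, had -0.24, Kdelr1 had -0.11 and Kdelr3 had 0.07. ER-phagy receptors had a median of -0.13 over 8 genes, with Tex264 at 0.43 and Atl3 at -0.29. The other measured probe of Atl3 had 0.17.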
